A study of Bos taurus with 6 samples.

Results

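The genes described here are those of cholesterol synthesis, uptake, trafficking and efflux in cultured bovine granulosa cells (GC), with the factors that control them. They were chosen as the transcript clusters, the array's unit for a gene, whose symbol in the deposited table equals an entry of a list of 37 symbols. SC4MOL and MSMO1, and SC5DL and SC5D, are older and newer symbols of the same gene, so the list stands for 35 genes. Of these, 32 had a transcript cluster of their own, among 26773 in the table, and each had exactly 1. They comprise 17 genes of synthesis, 6 regulators, 7 genes of uptake and trafficking and 2 of efflux. FDPS, the farnesyl diphosphate synthase, appeared only in a row shared with the symbol RUSC1 and was kept apart. INSIG2 and STARD4 were not analysed here. The list does not hold every gene of the pathway.

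Cholesterol is made from acetyl-CoA by way of mevalonate, isoprenoid units, squalene and lanosterol. When sterols are scarce in the membrane of the endoplasmic reticulum, the transcription factors SREBF1 and SREBF2 are escorted to the Golgi by SCAP and released, and they switch on the synthesis enzymes and lipoprotein receptors, while INSIG proteins hold SCAP back when sterols are plentiful. In the opposite direction, oxysterols activate the liver X receptors NR1H3 and NR1H2, which switch on the exporters ABCA1 and ABCG1 and the ubiquitin ligase MYLIP that degrades lipoprotein receptors. In the follicle, GC use cholesterol as the substrate of steroid hormones, and demand rises as they luteinize.

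All cultures were primary GC from pools of small to medium follicles of abattoir ovaries, from cows of undefined cycle stage. The medium, free of serum, held 2 μM androstenedione, IGF-1 (50 ng/ml) and FSH (20 ng/ml) during the 9 days of culture. The groups differed in plating, with 10 times as many cells per well at high density as at normal density, and comprised 3 cultures each, with 1 array per culture. P-values set the group difference against the spread between these cultures, with a variance that the test moderates over all transcript clusters. The cells were pooled, so the spread between single animals was not measured. In a bulk RNA sample fewer cells of a type and less RNA per cell cannot be told apart.

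The values are log2 signals, normalized by the authors with RMA, and a change is the difference of the group means on this scale, the log2 fold change from normal to high density. A gene was called when its FC exceeded 1.5 (0.585 on the log2 scale) with a p-value and a false discovery rate (FDR) below 0.05, tested with limma over all transcript clusters. Array medians lay between 4.34 and 4.43. The 95th percentile of the 82 reporter control rows, 4.62, was taken as the background level, and 31 of the 32 genes had a group mean above it. High density replicate 2 stood farthest from the other cultures of its group. Of 10 GC markers, 6 were called down at high density, including FSHR and CYP19A1, 1 was called up (HSD17B1), and their mean signal per culture was between 7.62 and 7.82 at normal and between 6.82 and 6.93 at high density. All 10 leukocyte and macrophage markers were below the background level at both densities. Of 6 theca markers, INSL3 and COL1A1 were called up and LHCGR down, the mean per culture was between 5.68 and 5.81 at normal and between 5.94 and 6.11 at high density, and the defining enzyme CYP17A1 was at 2.93 at both. For markers of endothelium 5 of 6, of red blood cells 5 of 6 (all except HBA) and of surface epithelium 4 of 5 were below the background level at both densities. The part of these markers in the results below was not tested.

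Of the 32 genes, 8 were called up and 0 down, where 3.97% of all transcript clusters were called up and 3.51% down. Among transcript clusters with a group mean above the background level, these shares were 6.95% and 5.86%. The 8 are the synthesis enzymes MVD, HSD17B7, TM7SF2, PMVK, CYP51A1, ACAT2 and SC5DL and the regulator INSIG1. At the FDR threshold alone, without a limit on FC, 20 were higher and 2 lower at high density, beside 8.64% and 10.4% of all transcript clusters, and 19.1% in either direction. Of those above the background level, 13.4% were higher. With each culture left out in turn, between 13 (without normal density replicate 1, 2 or 3) and 22 (without high density replicate 2) were higher and 1 or 2 lower. These counts rest on a variance shared by both groups, although the SD was larger at high density in 23 of the 32 genes. An exact permutation test, which needs no such variance, cannot decide here, because its smallest possible p is 0.1. The 2 lower genes were SOAT1 and ABCA1, and the number of lower genes at an unadjusted p below 0.05 was also 2. The methods' t-test called 8 up and 0 down. In 24 genes all high density cultures lay above all normal density cultures, a pattern found in 17.8% of all transcript clusters and in 22.1% of those with a group mean above the background level. In 2 genes they lay below all normal density cultures, beside 19.5% of all transcript clusters, and the groups were apart in either direction in 37.3%. The median change of the 32 genes was 0.36, beside 0.02 for all transcript clusters.

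**Figure D1:**
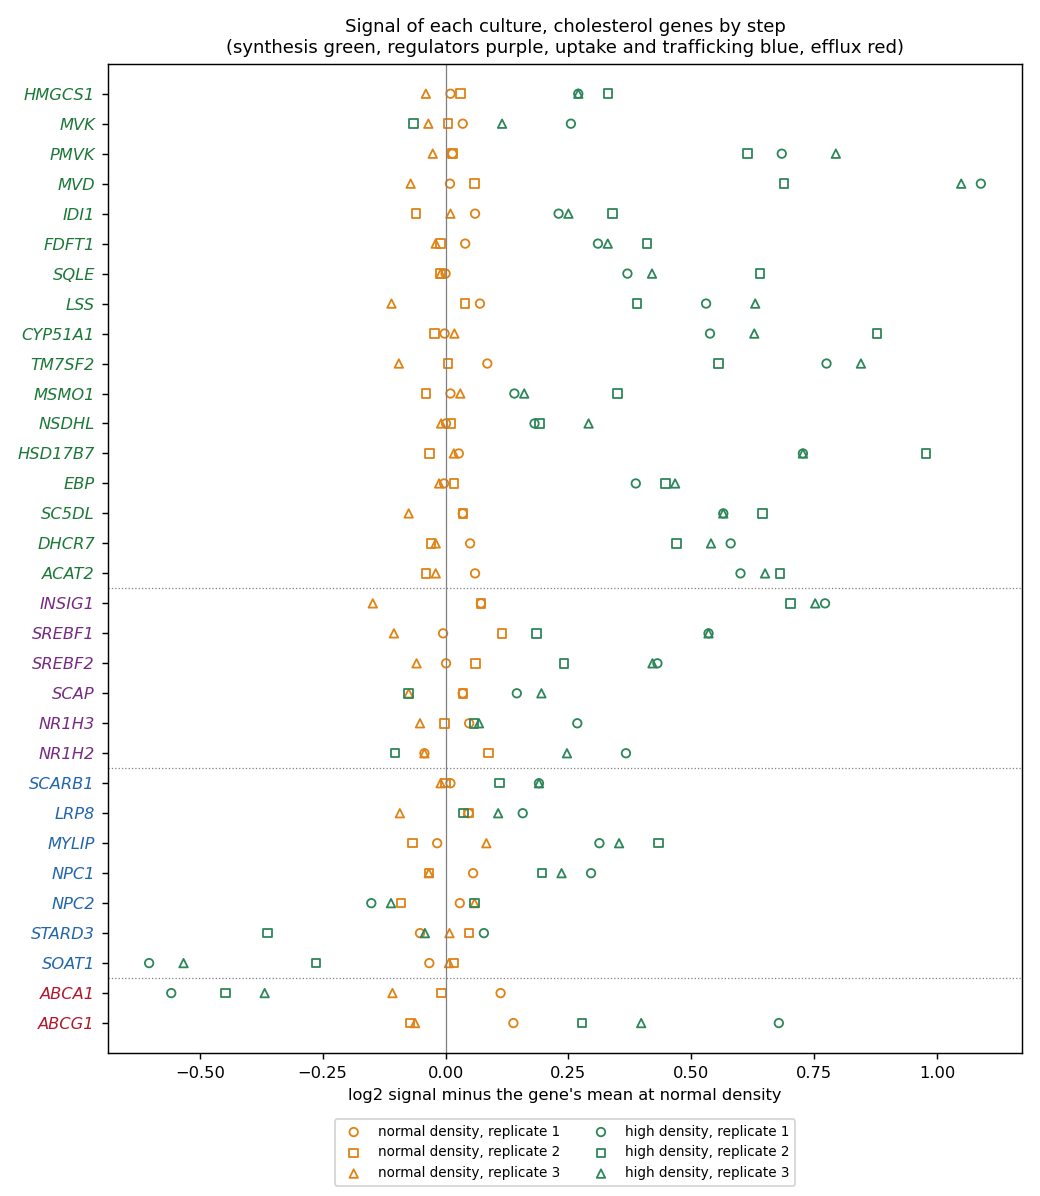
Log2 signal of every culture minus the mean of the normal density cultures of the same gene (x axis), for the 32 genes in rows by step. Circles, squares and triangles are replicates 1, 2 and 3, orange at normal and green at high density. In the synthesis rows the green points lie to the right of the orange ones except for MVK, while SOAT1 and ABCA1 lie to the left.

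Among the 17 synthesis genes, all changes were above 0, beside 53.6% of all transcript clusters and 42.5% of those above the background level. They ran from 0.10 to 0.94, with a median of 0.52 (1.43-fold). 7 were called up, 14 were higher at the FDR threshold, and in 16 the groups did not overlap. The 90th percentile of all changes in the table was 0.32, and 12 of the 17 genes exceeded it. Among transcript clusters with a group mean above the background level it was 0.43, and 11 exceeded that. The mean log2 signal over the 17 genes was 9.19, 9.16 and 9.14 in normal density replicates 1 to 3 and 9.65, 9.67 and 9.68 in high density replicates 1 to 3. In this mean no culture of one density came near those of the other.

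The largest change was that of MVD, the mevalonate diphosphate decarboxylase that yields isopentenyl diphosphate. Its signals were 6.83, 6.88 and 6.75 at normal density and 7.91, 7.51 and 7.87 at high density. Every high density culture was above the normal ones, with replicate 2 the lowest of them. The log2 fold change was 0.94 (standard error, SE, 0.12, limma's adjusted p = 0.00146), a 1.92-fold rise, and it was 1.07 without high density replicate 2. PMVK, the phosphomevalonate kinase of the step before, had signals of 5.73, 5.73 and 5.69 at normal and 6.40, 6.33 and 6.51 at high density. The groups were well apart, and PMVK rose by 0.70 (SE 0.07, limma's adjusted p = 0.000793).

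ACAT2, the cytosolic thiolase that joins acetyl-CoA units at the entry of the pathway, showed 9.88, 9.78 and 9.80 at normal and 10.42, 10.50 and 10.47 at high density. Both groups were tight, and the rise was 0.64 (SE 0.07, limma's adjusted p = 0.000771). Other genes of this early segment had smaller values. HMGCS1, which makes HMG-CoA, averaged 10.84 ± 0.03 in the normal and 11.13 ± 0.03 in the high density cultures (SD, n = 3), 0.29. higher on the log2 scale IDI1, the isomerase of the isoprenoid units, averaged 10.30 ± 0.06 in the normal and 10.57 ± 0.06 in the high density cultures (SD, n = 3), 0.27. higher on the log2 scale Both passed the FDR threshold (limma's adjusted p = 0.0194 and 0.0379) and missed that of FC. With the cultures left out in turn, HMGCS1 missed the FDR threshold in 4 and IDI1 in 5 of 6 cases. MVK, the mevalonate kinase, was the synthesis gene with overlapping groups, at 7.69, 7.66 and 7.62 against 7.91, 7.59 and 7.77. Its log2 fold change was 0.10, with a 95% interval from −0.12 to 0.32.

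MVK, PMVK and MVD act one after the other, and of these PMVK and MVD were called and MVK was not. Over the 6 genes from acetyl-CoA to the isoprenoid units the median change was 0.47. The row that names both RUSC1 and FDPS, outside the list, stood at 9.24, 9.28 and 9.15 at normal and 9.60, 9.61 and 9.72 at high density. Its log2 fold change of 0.42 (limma's adjusted p = 0.00688) was below the FC threshold and cannot be assigned to either gene.

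From squalene to lanosterol, 3 genes were measured and 0 were called, but all 3 passed the FDR threshold with groups that did not overlap. FDFT1, the squalene synthase, averaged 10.30 ± 0.03 in the normal and 10.65 ± 0.05 in the high density cultures (SD, n = 3), 0.35 higher on the log2 scale (limma's adjusted p = 0.0114). SQLE, the squalene epoxidase, was at 10.08, 10.07 and 10.07 at normal and 10.45, 10.72 and 10.50 at high density. Its normal density cultures were nearly equal and high density replicate 2 was the highest, with a log2 fold change of 0.48 (SE 0.09, limma's adjusted p = 0.00824). LSS, the lanosterol synthase, averaged 9.09 ± 0.10 in the normal and 9.61 ± 0.12 in the high density cultures (SD, n = 3), 0.52 higher on the log2 scale (limma's adjusted p = 0.00727).

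The 8 genes from lanosterol to cholesterol had a median change of 0.56, and 4 were called up. HSD17B7, the sterol 3-ketoreductase, had signals of 7.85, 7.79 and 7.84 at normal and 8.55, 8.80 and 8.55 at high density. It rose by 0.81 (SE 0.09, limma's adjusted p = 0.000924), or 1.75-fold. TM7SF2, a sterol reductase, was at 9.27, 9.19 and 9.09 against 9.96, 9.74 and 10.03, and rose by 0.72 (SE 0.10, limma's adjusted p = 0.00226). Replicate 2 was the highest of the high density cultures for HSD17B7 and the lowest for TM7SF2.

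CYP51A1, the lanosterol demethylase, showed 9.11, 9.09 and 9.13 at normal and 9.65, 9.99 and 9.74 at high density, a rise of 0.68 (SE 0.10, limma's adjusted p = 0.00304). Without high density replicate 2 its change was 0.58, just short of the FC threshold. SC5DL, the lathosterol oxidase, was at 9.55, 9.55 and 9.44 against 10.08, 10.16 and 10.08. Its rise of 0.59 (SE 0.07, limma's adjusted p = 0.00134) stood at 1.51-fold, hardly above the threshold, and the call was lost without high density replicate 2 (0.56) or normal density replicate 3 (0.55).

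The remaining 4 genes of this segment were higher at high density in every culture. DHCR7, the reductase of the last step to cholesterol, was at 10.52, 10.44 and 10.45 against 11.05, 10.94 and 11.01, a log2 fold change of 0.53 (limma's adjusted p = 0.00195). EBP, the sterol isomerase, averaged 8.74 ± 0.02 in the normal and 9.18 ± 0.04 in the high density cultures (SD, n = 3), 0.43 higher on the log2 scale (limma's adjusted p = 0.00367). NSDHL and MSMO1, which together remove methyl groups from the sterol ring, had log2 fold changes of 0.22 each and missed the FDR threshold (limma's adjusted p = 0.0603 and 0.112).

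**Figure D2:**
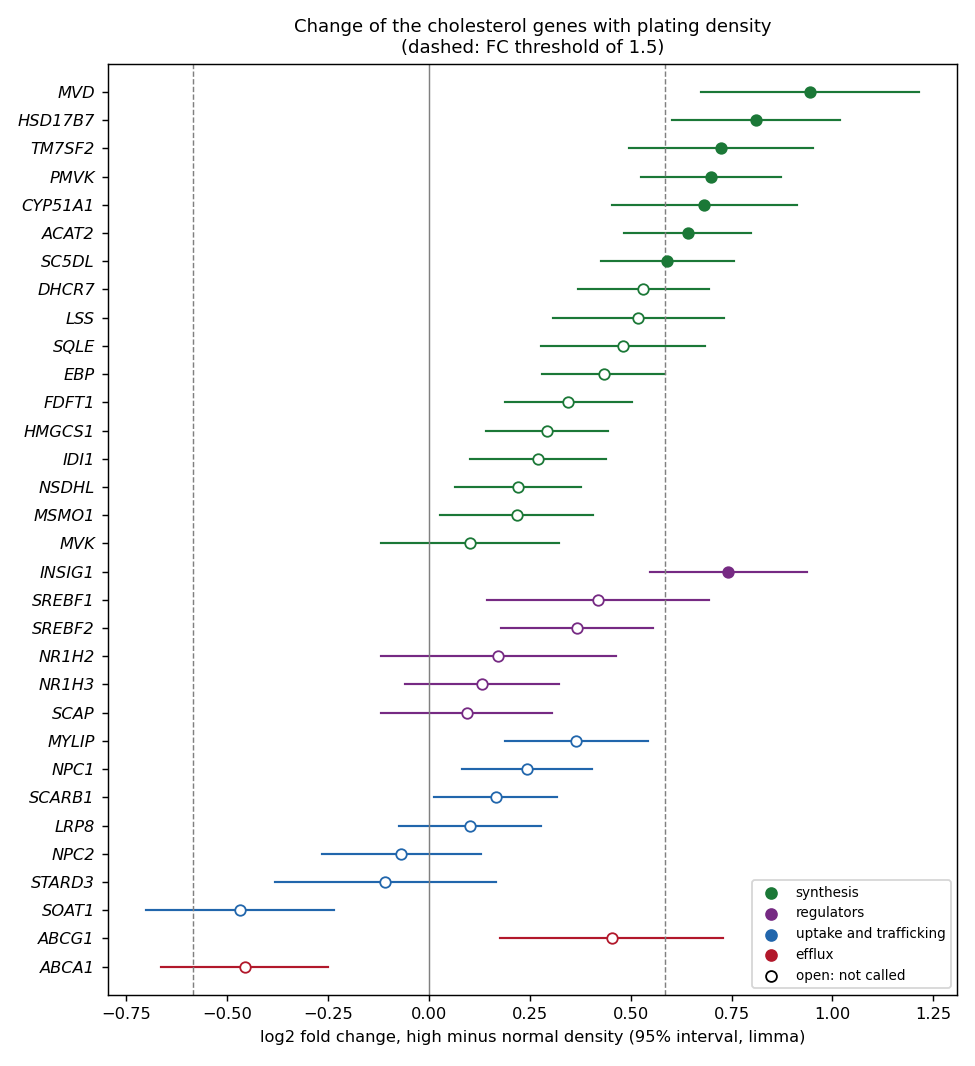
Log2 fold change from normal to high density (x axis), with the 95% interval from limma for each of the 32 genes, grouped by step and sorted by size. Filled points were called, open points were not, and dashed lines mark an FC of 1.5 in each direction. The filled points are 7 synthesis genes and INSIG1, and the intervals of SOAT1 and ABCA1 lie below 0.

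Of the 6 regulators, 1 was called up, 3 were higher at the FDR threshold, and all changes were above 0 with a median of 0.27. INSIG1, which retains SCAP in the endoplasmic reticulum and is itself a target of the SREBF factors, had signals of 9.52, 9.52 and 9.30 at normal and 10.22, 10.15 and 10.20 at high density. The high density cultures were within a narrow range above all normal ones. INSIG1 rose by 0.74 (SE 0.08, limma's adjusted p = 0.000994), or 1.67-fold.

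The SREBF factors passed the FDR threshold only. SREBF2, the form that mainly serves sterol synthesis, was at 8.01, 8.07 and 7.95 against 8.44, 8.25 and 8.43, a log2 fold change of 0.37 (SE 0.08, limma's adjusted p = 0.0186). SREBF1, whose products act more on fatty acid synthesis, was at 6.32, 6.44 and 6.22 against 6.86, 6.51 and 6.86, a log2 fold change of 0.42 (SE 0.12, limma's adjusted p = 0.0456). In both, high density replicate 2 was nearest to the normal density cultures, and without it the changes were 0.43 and 0.54. With the other cultures left out in turn, SREBF1 missed the FDR threshold in 5 of 5 cases (limma's adjusted p from 0.0735 to 0.151), and also with the methods' t-test (adjusted p = 0.142). SREBF2 missed it in 4 of the 6 cases. SCAP showed no detectable difference, at 8.61, 8.61 and 8.50 against 8.72, 8.50 and 8.77 (log2 fold change 0.09, 95% interval from −0.12 to 0.31).

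The liver X receptors differed by less than the spread allowed to detect. NR1H3 was at 5.89, 5.84 and 5.79 against 6.11, 5.90 and 5.91, a log2 fold change of 0.13 (95% interval from −0.06 to 0.32). NR1H2 was at 6.93, 7.06 and 6.93 against 7.34, 6.87 and 7.22, a log2 fold change of 0.17 (95% interval from −0.12 to 0.46). Its high density replicate 2 was below all normal density cultures, and without that culture the change was 0.31 and passed the FDR threshold (limma's adjusted p = 0.0298). With each other culture left out, NR1H2 missed the FDR threshold (limma's adjusted p from 0.419 to 0.750), with a lowest change of 0.076.

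Among the 7 genes of uptake and trafficking 0 were called in either direction by limma, and the median change was 0.10. At the FDR threshold 2 were higher and 1 lower. At an unadjusted p below 0.05, 3 were higher and 1 lower, beside 4032 and 4613 of all 26773 transcript clusters. The methods' t-test also called 0. SCARB1, the receptor for cholesterol from high density lipoprotein, was at 11.14, 11.13 and 11.12 at normal and 11.32, 11.24 and 11.32 at high density. The groups did not overlap, but the log2 fold change was 0.16 (95% interval from 0.01 to 0.32, limma's adjusted p = 0.126). LRP8, a receptor of the lipoprotein receptor family, had a log2 fold change of 0.10 (95% interval from −0.08 to 0.28).

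MYLIP was at 6.10, 6.05 and 6.20 against 6.43, 6.55 and 6.47, a log2 fold change of 0.37 (SE 0.08, limma's adjusted p = 0.0145), and it missed the FDR threshold with 2 of the 6 cultures left out in turn. Of the pair of proteins that move cholesterol out of late endosomes, NPC1 had a log2 fold change of 0.24 (limma's adjusted p = 0.0475, over 0.05 with 5 of the 6 cultures left out in turn) and NPC2 of −0.07 (95% interval from −0.27 to 0.13). STARD3, which carries sterol between endosomes and other membranes, had a log2 fold change of −0.11 (95% interval from −0.38 to 0.17), and without high density replicate 2 it was 0.02.

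SOAT1, which esterifies cholesterol for storage in lipid droplets, was at 9.23, 9.28 and 9.27 at normal and 8.66, 9.00 and 8.73 at high density. All high density cultures were lower, replicate 2 the least. Its log2 fold change was −0.47 (SE 0.10, limma's adjusted p = 0.0163), or 1.38-fold lower, which passed the FDR threshold but not that of FC. Without high density replicate 2 it was −0.57, still short of the FC threshold. SOAT1 missed the FDR threshold with the methods' t-test (adjusted p = 0.0702) and with 4 of the 6 cultures left out in turn.

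The exporters, of which both were below the FC threshold, had changes of opposite sign. ABCA1, which loads cholesterol onto lipid-poor apolipoprotein, was at 7.52, 7.40 and 7.30 at normal and 6.85, 6.96 and 7.04 at high density. The groups did not overlap, and the log2 fold change was −0.46 (SE 0.09, limma's adjusted p = 0.0113). ABCG1, which exports to larger lipoprotein particles, was at 3.36, 3.15 and 3.16 against 3.90, 3.50 and 3.62. Its log2 fold change was 0.45 (SE 0.12, limma's adjusted p = 0.0355), but every signal was below the background level of 4.62. ABCG1 missed the FDR threshold with the methods' t-test (adjusted p = 0.126) and with 5 of the 6 cultures left out in turn, while ABCA1 passed it with each left out.

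**Figure D3:**
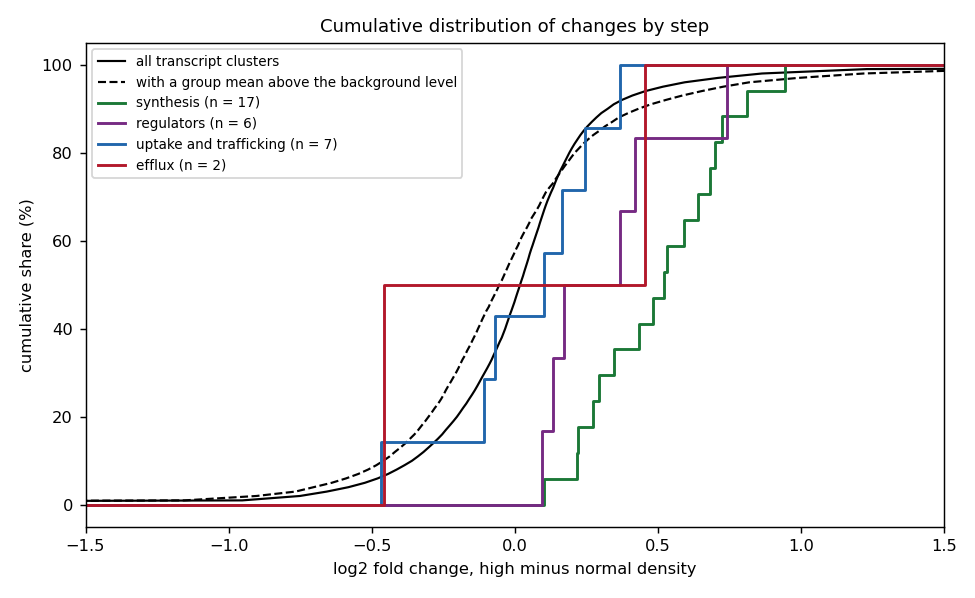
Cumulative share of genes (y axis, percent) at or below a log2 fold change (x axis), for all transcript clusters (solid black), for those with a group mean above the background level (dashed black) and for each step (coloured steps). Up to its largest change, 0.94, the synthesis curve lies to the right of both black curves, with its median at 0.52. The uptake and trafficking curve, with a median of 0.10, runs close to both black curves.

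The SD at high density was larger than at normal density in 23 of the 32 genes (71.9%), with medians of 0.11 and 0.05. The share was 68.4% over all transcript clusters and 74.9% over those with a group mean above the background level, close to that of the 32 genes. In the synthesis genes, high density replicate 2 was the highest of its group in 9 of 17 and the lowest in 6 of 17. Over all transcript clusters it was the highest in 34.9% and the lowest in 44.3%. Relative to the group mean it was highest for CYP51A1 (0.20), HSD17B7 (0.17), SQLE (0.16) and MSMO1 (0.14), and lowest for MVD (−0.25), TM7SF2 (−0.17), MVK (−0.17) and LSS (−0.13). In the regulators it was the lowest of the group in 6 of 6, by 0.27 for NR1H2, 0.24 for SREBF1, 0.16 for SCAP and 0.12 for SREBF2 below the mean. Without this culture 6 of the 32 genes were called up, CYP51A1 and SC5DL being lost, and 22 were higher at the FDR threshold, where 13.6% of all transcript clusters were.

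**Figure D4:**
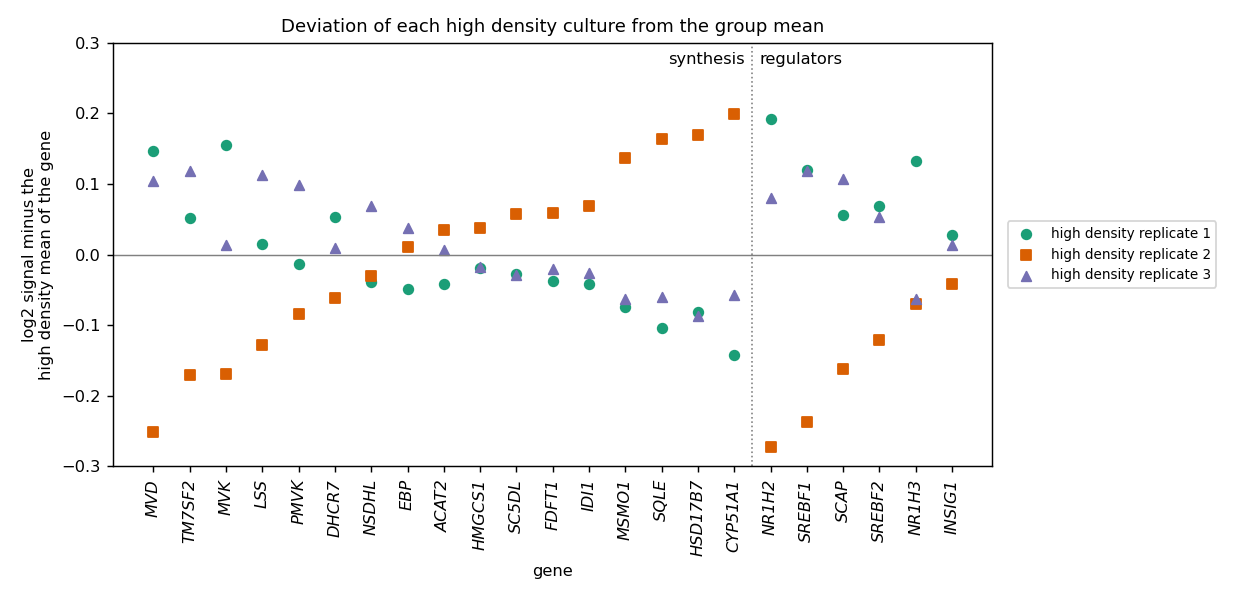
Deviation of each high density culture from the mean of the 3 high density cultures (y axis, log2 signal) for the synthesis genes and the regulators (x axis), sorted within each by replicate 2. Circles, squares and triangles are replicates 1, 2 and 3. Replicate 2 runs from −0.25 for MVD to 0.20 for CYP51A1 in the synthesis genes and is below 0 for all 6 regulators.

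Of 43 other genes of cholesterol handling, 5 were called up and 0 down by limma, where 7.49% of all transcript clusters were called. At the FDR threshold 10 of the 43 were higher and 4 lower, where 8.64% and 10.4% of all transcript clusters were. At an unadjusted p below 0.05, 10 were higher and 7 lower, beside 4032 and 4613 of all 26773 transcript clusters. Those passing the FDR threshold included SCARB2 (log2 fold change −0.42, limma's adjusted p = 0.00756). They also included CH25H (0.40, limma's adjusted p = 0.0207), below the background level at both densities. For those not called, the FDR with a culture left out was not examined. The called genes were VLDLR, LIPE, GRAMD1B, LCAT and APOA1, and the median change over the 43 was 0.02. VLDLR, the receptor for very low density lipoprotein, was at 7.71, 7.76 and 7.68 at normal and 9.31, 9.39 and 9.32 at high density. The cultures of each density were close together, and VLDLR rose by 1.63 (SE 0.07, limma's adjusted p = 1.77e-05), or 3.09-fold. This rise was larger than that of any of the 32 genes.

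GRAMD1B, which carries cholesterol from the plasma membrane to the endoplasmic reticulum, was at 7.05, 7.0 and 6.87 against 7.73, 7.53 and 7.68, and rose by 0.67 (SE 0.09, limma's adjusted p = 0.00172). Its relative GRAMD1C was lower, with a log2 fold change of −0.43 (limma's adjusted p = 0.0256), and GRAMD1A had one of −0.17 (limma's adjusted p = 0.264). STAR, which brings cholesterol into the mitochondria for steroid synthesis, was at 9.09, 8.97 and 9.02 against 8.52, 8.70 and 8.39. Its log2 fold change was −0.49 (SE 0.09, limma's adjusted p = 0.0105), short of the FC threshold. TSPO, another mitochondrial sterol-binding protein, had a log2 fold change of 0.44 (limma's adjusted p = 0.0229).

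In ester handling, LIPE, the hormone-sensitive lipase that can release stored cholesterol, was at 4.41, 4.41 and 4.30 against 5.35, 4.96 and 5.36. It rose by 0.85 (SE 0.12, limma's adjusted p = 0.00259) from a mean of 4.38, under the background level, where RMA compresses differences. NCEH1, a cholesteryl ester hydrolase, had a log2 fold change of 0.41 (limma's adjusted p = 0.00534). LIPA, the lysosomal acid lipase that releases cholesterol from lipoprotein esters, had a log2 fold change of −0.20 and missed the FDR threshold (limma's adjusted p = 0.0911), although its high density cultures lay below the normal ones. SOAT2, the relative of SOAT1, was below the background level at both densities.

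Outside the cell, APOA1, the main apolipoprotein of high density lipoprotein, was at 7.0, 7.07 and 6.84 against 7.68, 7.54 and 7.58, and rose by 0.63 (SE 0.09, limma's adjusted p = 0.00237). LCAT, which esterifies cholesterol on these particles, was at 5.22, 5.51 and 5.50 against 6.16, 5.82 and 6.21, and rose by 0.65 (SE 0.13, limma's adjusted p = 0.0121). The call of LCAT was lost when normal density replicate 1 (0.56) or high density replicate 3 (0.58) was left out, and with the methods' t-test (adjusted p = 0.0759). The call of APOA1 was lost without normal density replicate 3 (0.57). PLTP had a log2 fold change of 0.56 and LPCAT3, a target of the liver X receptors, of 0.28 (limma's adjusted p = 0.00417 and 0.0249). The mean of PLTP was 4.23 at normal density, under the background level, and 4.80 at high density.

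Among the other genes of synthesis and regulation, MBTPS2 was the one that passed the FDR threshold. MBTPS2, the protease that makes the second cut of the SREBF factors, had a log2 fold change of −0.32 (limma's adjusted p = 0.0164), and MBTPS1, which makes the first, of 0.02 (95% interval from −0.14 to 0.17). Of the 10 genes in this group 0 were called by limma, and 0 were higher and 1 lower at the FDR threshold. At an unadjusted p below 0.05, 0 were higher and 2 lower, beside 4032 and 4613 of all 26773 transcript clusters.

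**Figure D5:**
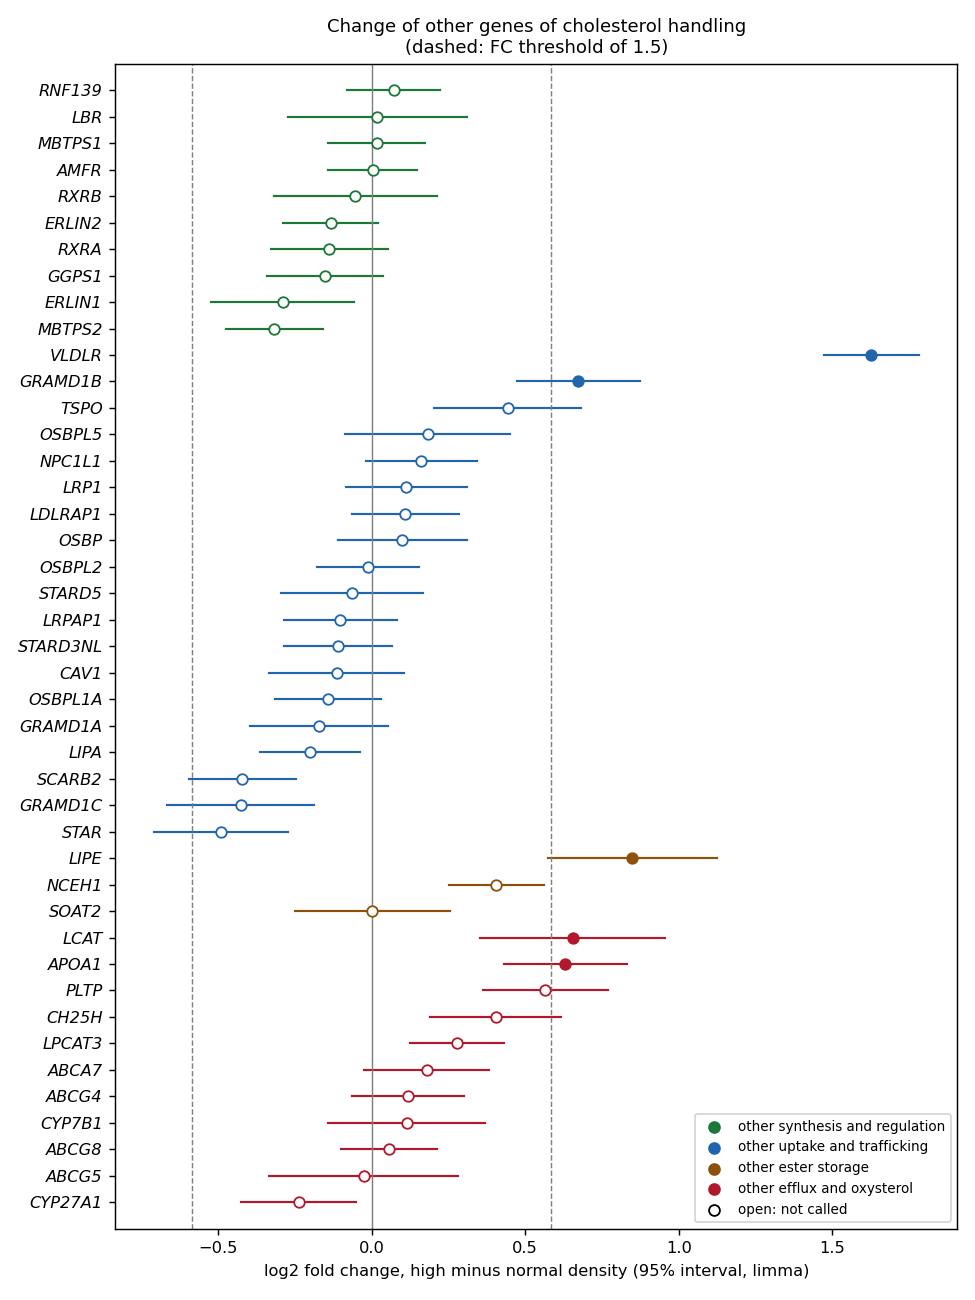
Log2 fold change from normal to high density (x axis), with the 95% interval from limma for 43 further genes of cholesterol handling, by group and size. Filled points were called, open points were not, and dashed lines mark an FC of 1.5. VLDLR stands apart at 1.63, and the interval of STAR lies below 0.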

How the data were processed

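RNA of 6 cultures of bovine GC, 3 per density, was hybridized to whole-transcript arrays (Bovine Gene ST). In Expression Console, the authors applied RMA to the scans, which corrects background, normalizes between arrays and summarizes per gene, and the deposited values are log2 signals, used here as they are. The genome build is not given in the sources used here. The table holds 26773 transcript clusters and 0 columns of other samples. RMA shrinks differences near the background level, so changes of weak signals are limited in size, and the number of arrays limits the precision.

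Groups were compared in R 4.3.3 by limma 3.58.1 (functions lmFit and eBayes, without covariates or a trend in the prior variance) on all transcript clusters, with Benjamini-Hochberg adjustment over all of them. Intervals are limma's 95% intervals. The methods' t-test is the analysis of variance they name, for 2 groups. The smallest p that exact permutation allows here is 0.1. The fit was tested on simulated data. Plots used Python 3.11.15 and matplotlib 3.10.9.

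The genes and lists were chosen with earlier results of these data known. Every listed gene with a transcript cluster is named. Those called, and the SREBF and liver X receptor regulators and exporters, are given with every culture, and of the other pathway genes the called ones are named. TSPO, NCEH1, LIPA, SOAT2, STAR, GRAMD1A, GRAMD1C, PLTP, LPCAT3, SCARB2, CH25H, MBTPS1 and MBTPS2 were named after their values were seen. Symbols were checked through accessions in RefSeq (ARS-UCD2.0) for 24 of the 32 genes, of which 23 had the same symbol and SC5DL its newer symbol SC5D. The planned search for promoter motifs was not run, and sequences were not analysed here. 1 other gene of the pathway lists is not reported here. Alternatives were another test, prior variance, weights, block, scaling, filter and threshold, and leaving out each culture.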

Additional observations from a re-analysis of the deposited data

How the results depend on the processing

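The 8 calls among the 32 genes were also made with the methods' t-test, eBayes with a trend and robust variances, another quantile normalization, an FDR below 0.01 and without weak signals, and 7 of the 8 with array weights and with equal array medians, SC5DL being lost in both. The number called up was 2 (ACAT2 and SC5DL) with the Welch version, 0 with limma's treat, which tests against the FC threshold, and 20 at the FDR threshold at any FC, where 2 were called down. With each culture left out it was between 6 (without high density replicate 2, where CYP51A1 and SC5DL were lost) and 8, and 0 were called down each time. Of the 43 other genes, 4 were called with the methods' t-test and at an FDR below 0.01 (LCAT being lost), 2 with the Welch version, 1 with treat, 14 at any FC and between 4 and 6 with a culture left out. Signals below the background level, as those of ABCG1, are the least certain.

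The replicate numbers are shared between the groups, but deviations of same-numbered cultures correlated at 0.05, −0.05 and −0.04 across transcript clusters, so no pairing was detectable and the numbers were not used to pair cultures. The sources used here do not say whether same-numbered cultures share a cell pool. With the replicate number as a block, 8 of the 32 genes were called up and 5 of the 43 others, and 15 of the 32 were higher at the FDR threshold. SREBF1 (adjusted p = 0.0887) and SREBF2 (adjusted p = 0.0547) then missed it.

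The median change of the synthesis genes was 0.48 with equal array medians and between 0.48 and 0.56 with a culture left out. For uptake and trafficking it was 0.057 with equal array medians, 0.13 after another quantile normalization, 0.033 as a mean and between 0.054 and 0.13 with a culture left out, and that of the regulators was between 0.20 and 0.37. The median of the 2 efflux genes was −0.002 and had no stable sign, between −0.046 and 0.061 with a culture left out (above 0 without normal density replicate 1 or high density replicate 2), and it was −0.46 with the filter on low signals, which removes ABCG1. The change of STARD3 was between −0.20 and 0.020 with a culture left out, and above 0 without high density replicate 2. The cause of the other shifts was not tested.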
